A study of Mus musculus with 8 samples.

Results

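The glycolysis and hypoxia response genes were 38 mouse genes, taken by symbol from a table of 24787 genes. They were chosen with earlier results of these data known. They fell into 2 classes by known function: 21 glycolytic enzymes and transporters of glucose and lactate, and 17 other genes of the hypoxia-inducible factor (HIF) pathway. All 38 were in the table, and 36 passed the filter on low values, 20 enzymes and transporters and 16 other HIF pathway genes. The lactate exporter gene Slc16a3 and the vasodilator peptide gene Adm stayed under the filter in both groups and were not tested.

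The RNA came from cultured 4T1 cells, a mouse mammary tumour line. In 4 libraries the cells, labelled wild type, carried a control shRNA, and in 4 they were labelled as knocked down for Etv5, an ETS-family transcription factor, by an shRNA. The library names give a single construct name to all Etv5 shRNA libraries, so the knockdown appears to rest on 1 hairpin. The study is concerned with ETV5 in the tumour cell and escape from immunity by way of myeloid-derived suppressor cells, and no label names an oxygen level, a drug or a time point. The members therefore show the pathway in these cultures as they were grown, and the comparison asks whether it differed when Etv5 was targeted. No label says that replicates were separate cultures, so the p-values measure only how far these samples spread, and that spread may be technical.

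HIF-1 is a transcription factor made of an oxygen-sensitive alpha subunit, encoded by Hif1a, and a stable partner, encoded by Arnt. While oxygen is present, prolyl hydroxylases of the Egln family mark the alpha subunit for destruction, and when oxygen falls it builds up and binds short promoter motifs. Its known targets include most glycolytic enzymes, the glucose transporter gene Slc2a1, the kinase gene Pdk1 and Egln3, which feeds back on the factor. The kinase encoded by Pdk1 inhibits pyruvate dehydrogenase, which turns pyruvate into acetyl-CoA inside the mitochondria. Many tumour cells run glycolysis at a high rate even with oxygen present.

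The promoters show where the factor could bind in the members that the results turn on. RefSeq promoter entries on GRCm38.p6, each of 300 bases, were found for 36 of the 38 genes; Bnip3l and Ndrg1 had none. The HIF core motif was searched as ACGTG or GCGTG on both strands, so that CACGT and CACGC also count. It occurred in at least 1 promoter of 33 of the 36 genes, or 91.7%, against 69.4% of the genes tested and 46.7% of all genes with an entry. By window, the shares were 78.8% for the members, 63.5% for the genes tested and 43.8% for all. A core ETS motif, CCGGAAG on both strands, occurred in 3 of the 36 genes, Aldoc, Kdm3a and Higd1a, or 8.3%, against 21.8% of the genes tested. The letters CACGTG, which contain the HIF core, occurred in 6 of the 36 genes, or 16.7%, against 12.3% of the genes tested.

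The next 4 sequences are the 250 bases before the RefSeq start of the only member called in either comparison (Egln3), its paralogue that was not called (Egln1), the enzyme gene with the largest upward difference without the third Etv5 shRNA library (Ldha), and a textbook HIF target (Car9, carbonic anhydrase IX). They lie at chr12:54203875-54204124 on the minus strand, chr8:124949255-124949504 on the minus strand, chr7:46845554-46845803 on the plus strand and chr4:43506776-43507025 on the plus strand of GRCm38.p6. Each is written 5′ to 3′ on the strand of its gene, with every HIF core match in capitals.
Egln3: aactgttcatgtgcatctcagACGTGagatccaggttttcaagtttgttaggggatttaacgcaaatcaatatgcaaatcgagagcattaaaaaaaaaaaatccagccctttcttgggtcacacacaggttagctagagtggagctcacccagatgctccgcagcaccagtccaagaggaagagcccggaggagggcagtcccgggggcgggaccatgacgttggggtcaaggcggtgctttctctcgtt
Egln1: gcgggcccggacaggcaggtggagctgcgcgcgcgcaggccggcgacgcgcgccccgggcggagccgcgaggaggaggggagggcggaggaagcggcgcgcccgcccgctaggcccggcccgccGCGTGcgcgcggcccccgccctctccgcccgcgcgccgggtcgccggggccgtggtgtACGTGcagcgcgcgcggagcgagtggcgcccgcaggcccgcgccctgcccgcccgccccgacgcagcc
Ldha: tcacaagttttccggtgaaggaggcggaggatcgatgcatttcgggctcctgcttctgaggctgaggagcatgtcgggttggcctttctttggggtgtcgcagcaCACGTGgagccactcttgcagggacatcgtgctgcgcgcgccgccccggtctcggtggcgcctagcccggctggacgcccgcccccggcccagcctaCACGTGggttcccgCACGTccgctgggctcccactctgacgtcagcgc
Car9: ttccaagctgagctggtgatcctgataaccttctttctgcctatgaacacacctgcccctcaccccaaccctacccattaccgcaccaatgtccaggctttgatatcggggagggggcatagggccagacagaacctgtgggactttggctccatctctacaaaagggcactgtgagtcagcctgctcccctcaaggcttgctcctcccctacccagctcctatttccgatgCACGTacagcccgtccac
The Egln3 stretch held 1 match, from 229 to 225 bases before the start, and the Car9 stretch 1 match, from 18 to 14 bases before it. Egln1 held 2. Ldha held 5, since CACGTG reads as a match on either strand. It has 2 RefSeq starts, and the stretch shown was chosen because it held more matches. The stretch before the other start held 1. A match describes these letters only and is not evidence of binding.

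Each value behaves as the mean coverage of a gene per base after scaling to library depth and is called its coverage value here. How it was computed is not given in the sources used here, so levels and shares set between genes assume that it is per length. Differences are log2 fold changes of the coverage value plus 1, Etv5 shRNA minus control shRNA, which understates the change of low genes. A gene was called at a Benjamini-Hochberg adjusted p under 0.05 from limma, a linear model fitted to the 11731 genes that passed the filter. Every comparison is given with all 8 libraries and again without the third Etv5 shRNA library, which stood apart from the other 7. Its values summed to 390495, against 254792 to 308393 in the others, and 13920 of its genes were above 0, against 15126 to 15379. The epithelial markers of the line were all present, and 14 of 15 leukocyte, 6 of 6 endothelial and 6 of 7 fibroblast markers were under 1 in every library. The exceptions were Cd68, at 2.89 to 4.43 over all libraries, and Pdgfra, at 2.54 to 3.54 in control and 0.519 to 2.15 in Etv5 shRNA libraries. The summed epithelial markers ranged from 1333 to 1811 in the controls and from 1358 to 1685 in the Etv5 shRNA libraries other than the third, where the sum was 3174. Of the markers, 2 were called without the third Etv5 shRNA library. The adhesion gene Cdh1 rose, from 34.3 to 41.8 over the controls to 60.1 to 65.5 over the other Etv5 shRNA libraries (log2 fold change 0.71, adjusted p = 0.00455), and was 31.0 in the third. Pdgfra fell (log2 fold change -0.50, adjusted p = 0.0452). In bulk RNA, fewer cells that use a gene and less RNA per cell cannot be told apart.

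Etv5 itself, the targeted gene, did not separate the groups. It lies at chr16:22381309-22439719 on the minus strand of mm10, and a processed pseudogene shares 26.8% of the 50-base stretches in its longest transcript. Its coverage value was 15.2, 15.1, 11.7 and 14.4 with the control shRNA and 13.0, 11.2, 7.52 and 12.7 with the Etv5 shRNA, in replicate order. The log2 fold change was -0.33 (SE 0.19, adjusted p = 0.819) with 8 libraries and -0.17 (SE 0.11, adjusted p = 0.422) without the third Etv5 shRNA library. An exact two-sided permutation test of the 8 deposited values gave p = 0.0857, where the smallest p the design allows is 0.0286. "Etv5 shRNA" below therefore refers to the label of a library and not to a measured loss of the transcript.

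With all 8 libraries, none of the 36 tested members was called in either direction. In the background, 57 of the 11731 genes tested were called lower, or 0.486%, and 1 was called higher, or 0.00852%, so a count of 0 among 36 members is near the background. At an unadjusted p under 0.05 stood 3 members, Eno2, Egln3 and Ndrg1, all 3 lower with the Etv5 shRNA, where 7.09% of all genes tested stood in either direction and 5.98% in the lower. Groups of 4 against 4 did not overlap in 5 members, Pfkm, Eno2, Slc2a1, Egln3 and Ndrg1, all lower. Over all genes tested the groups did not overlap in the lower direction in 7.58% and in the higher direction in 1.52%. Without the third Etv5 shRNA library 1 member was called, Egln3, which fell, and none was called higher. The background for that comparison was 2.05% of genes lower and 1.08% higher. Unadjusted p-values under 0.05 then belonged to 6 members: Pfkm, Eno2, Egln3 and Ndrg1, with lower values, and Pdk3 and Hif1a, with higher values. Over all genes tested that share was 18.8%, with 10.5% lower and 8.38% higher, so the 6 of 36 were near the background. Values did not overlap in the lower direction in 5 members, again those 5, against a background of 10.4%, and in the higher direction in 3, Slc16a1, Pdk3 and Hif1a, against a background of 9.76%.

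**Figure D1:**
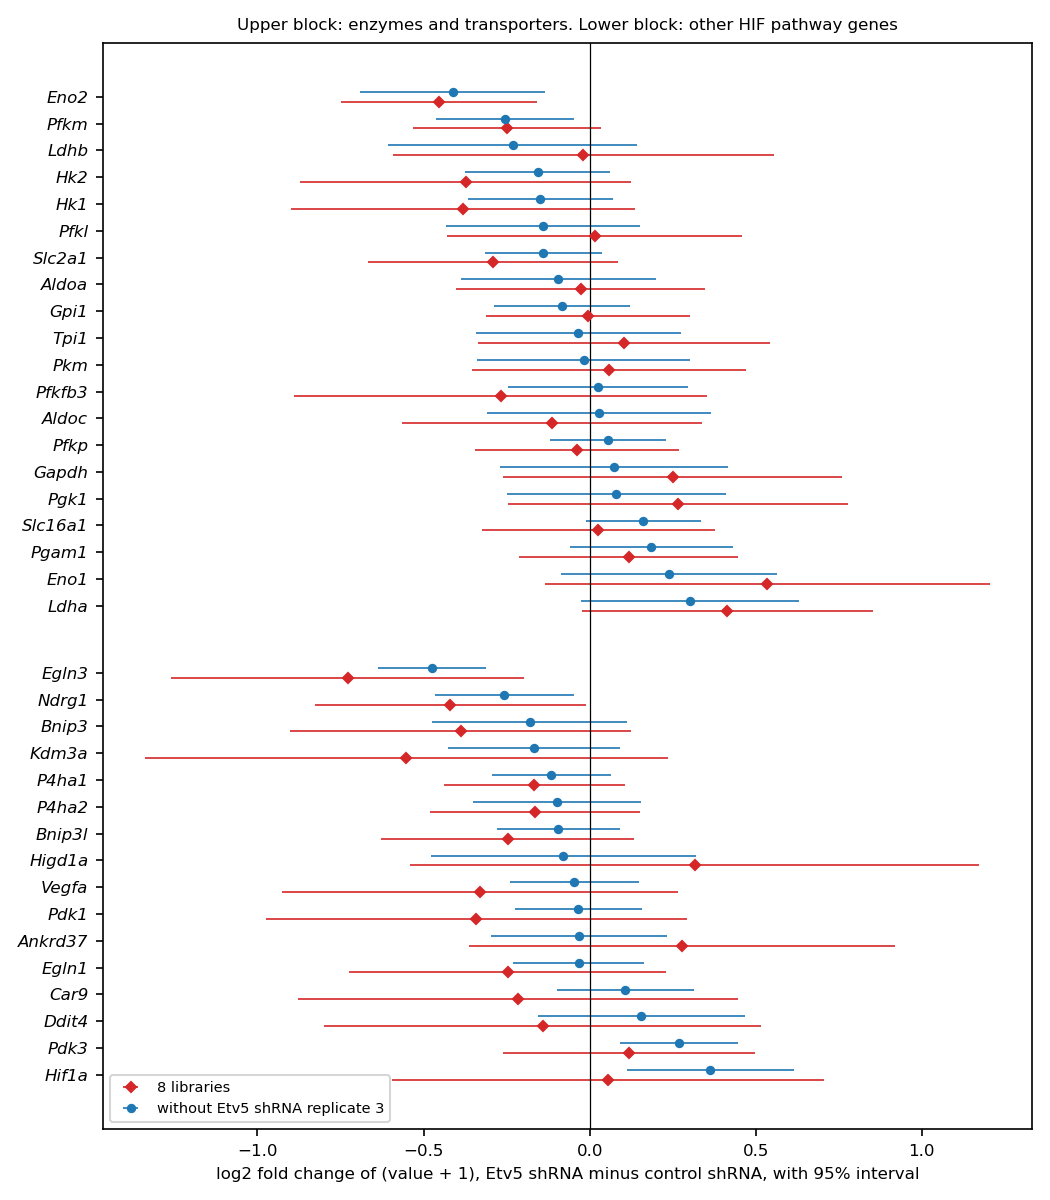
Log2 fold change of the coverage value plus 1 (Etv5 shRNA minus control shRNA, horizontal axis) for the 36 tested members, with 95% intervals, sorted within each class by the value without the third Etv5 shRNA library. Red diamonds use 8 libraries and blue circles leave out that library; the blue intervals are narrower for all 36 members, and Egln3, at -0.48, is the only one called.

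The medians of the 2 classes, given as a description without a test, lay further apart with 8 libraries than without the third Etv5 shRNA library. The median log2 fold change of the 20 enzymes and transporters was -0.012 with 8 libraries, and that of the 16 other HIF pathway genes was -0.23, beside a median of -0.11 over all genes tested. Without that library the medians were -0.026 and -0.062, beside -0.0029 for all genes tested. The share of members below 0 was 11 of 20 and 12 of 16 in both comparisons. Intervals also narrowed: the median SE of the 36 members was 0.20 with 8 libraries and 0.11 without the third. All 36 of the 95% intervals then lay within 1 log2 unit of 0 and 30 lay within 0.5, against 32 and 10 with 8 libraries. With median-of-ratios scaling of the 8 libraries, the median of all genes tested moved from -0.11 to 0.018, that of the enzymes and transporters to 0.15 and that of the other HIF pathway genes to -0.068. With quantile normalisation the median of all genes tested moved to 0.0077, and the class medians to -0.060 and -0.15, so that both classes lay below all genes and closer to each other.

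Of the glycolytic enzymes, all 18 were tested and none was called in either comparison. The entry steps were carried by both hexokinases. Hk1 ranged from 23.4 to 28.8 in the controls and from 21.3 to 25.4 with the Etv5 shRNA outside the third library, where it was 11.9. Hk2, the hexokinase most often raised in tumours, was 11.3, 10.9, 8.93 and 9.79 in the controls and 9.23, 9.26, 4.50 and 8.62 with the Etv5 shRNA. The third Etv5 shRNA library lay far below the other 7, whose groups overlapped, and the log2 fold change of Hk2 without it was -0.16 (SE 0.10, adjusted p = 0.422).

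Phosphofructokinase commits the sugar to glycolysis, and its muscle-type subunit gene Pfkm was lower in every Etv5 shRNA library than in any control. Pfkm was 7.87, 8.29, 8.28 and 7.31 with the control shRNA and 6.85, 5.82, 6.60 and 6.84 with the Etv5 shRNA, means of 7.94 ± 0.463 (SD, n = 4) and 6.53 ± 0.487 (SD, n = 4). Its difference did not pass the adjusted test, at -0.25 (SE 0.12, adjusted p = 0.769) with 8 libraries and -0.25 (SE 0.093, adjusted p = 0.177) without the third Etv5 shRNA library. The third library lay among the other Etv5 shRNA libraries for this gene. The liver-type subunit gene Pfkl and the platelet-type Pfkp had overlapping groups, with log2 fold changes of -0.14 and 0.055 without that library. Pfkfb3, which makes the fructose 2,6-bisphosphate that activates phosphofructokinase, was 2.49, 2.24, 1.63 and 2.19 in the controls and 2.56, 1.99, 0.409 and 2.00 with the Etv5 shRNA. Only the third library was low, and without it the difference of Pfkfb3 was 0.025 (95% interval -0.25 to 0.30).

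None of the member enolases and lactate dehydrogenases passed the adjusted test in either comparison. Eno1, the general enolase, was 356, 377, 460.5 and 308 with the control shRNA and 434, 450.0, 994 and 431 with the Etv5 shRNA. The third Etv5 shRNA library held more than any other library, and the remaining groups overlapped through the third control. The log2 fold change of Eno1 was 0.53 (adjusted p = 0.819) with 8 libraries and 0.24 (SE 0.14, adjusted p = 0.409) without that library. Eno1 is uncertain, because 72.2% of its 50-base stretches also occur in other annotated genes, 9 in all, of which Eno1b shares the most. Eno2, the neuronal enolase, was 1.97, 1.53, 1.11 and 1.44 in the controls and 1.03, 0.769, 0.673 and 0.824 with the Etv5 shRNA. Every Etv5 shRNA library was below every control. Its log2 fold change was -0.45 (SE 0.13, adjusted p = 0.35) with 8 libraries and -0.41 (SE 0.12, adjusted p = 0.115) without the third, at a level close to the filter. Eno3, the muscle enolase and not a member, was 61.7, 69.5, 82.9 and 59.5 in the controls and 69.0, 65.0, 174 and 76.4 with the Etv5 shRNA, with overlapping groups and a difference of 0.045 (adjusted p = 0.872) without the third library.

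Ldha, which turns pyruvate into lactate, was 385, 419, 541 and 392 with the control shRNA and 511, 517, 726 and 567 with the Etv5 shRNA. The third control, at 541, lay above 2 of the Etv5 shRNA libraries, and the other 3 controls lay below all 4. Its log2 fold change was 0.41 (95% interval -0.022 to 0.85, adjusted p = 0.731) with 8 libraries and 0.30 (95% interval -0.026 to 0.63, adjusted p = 0.305) without the third Etv5 shRNA library. Ldhb, whose enzyme form favours the reverse reaction, was 6.53, 6.88, 9.38 and 5.01 in the controls and 4.93, 5.94, 11.0 and 6.12 with the Etv5 shRNA. Both groups held their highest Ldhb value in replicate 3, and the groups overlapped. The difference of Ldhb without the third Etv5 shRNA library was -0.23 (SE 0.17, adjusted p = 0.487).

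Pgam1, the phosphoglycerate mutase, was 192, 211, 233 and 198 in the controls and 234, 222, 196 and 255 with the Etv5 shRNA. The groups overlapped, and the log2 fold change without the third Etv5 shRNA library was 0.18 (SE 0.11, adjusted p = 0.399). As many as 41.5% of the 50-base stretches of Pgam1 occur elsewhere among annotated genes. The remaining enzymes of the lower pathway were among the most highly covered members and lay close to 0: without the third Etv5 shRNA library the differences were -0.095 for Aldoa, -0.034 for Tpi1, 0.073 for Gapdh, 0.08 for Pgk1 and -0.018 for Pkm. Pkm, pyruvate kinase, had the highest level of all members, from 940 to 1093 in the controls. Copies share 68.0% of the 50-base stretches of Pgk1, 34.4% of Pkm and 27.8% of Gapdh, so these levels are uncertain. Among the other members the shared part was 36.6% for Higd1a, 27.0% for Ldhb, 23.4% for Bnip3l and 16.6% for Ldha. Gpi1 and Aldoc, at -0.084 and 0.029, had overlapping groups.

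**Figure D2:**
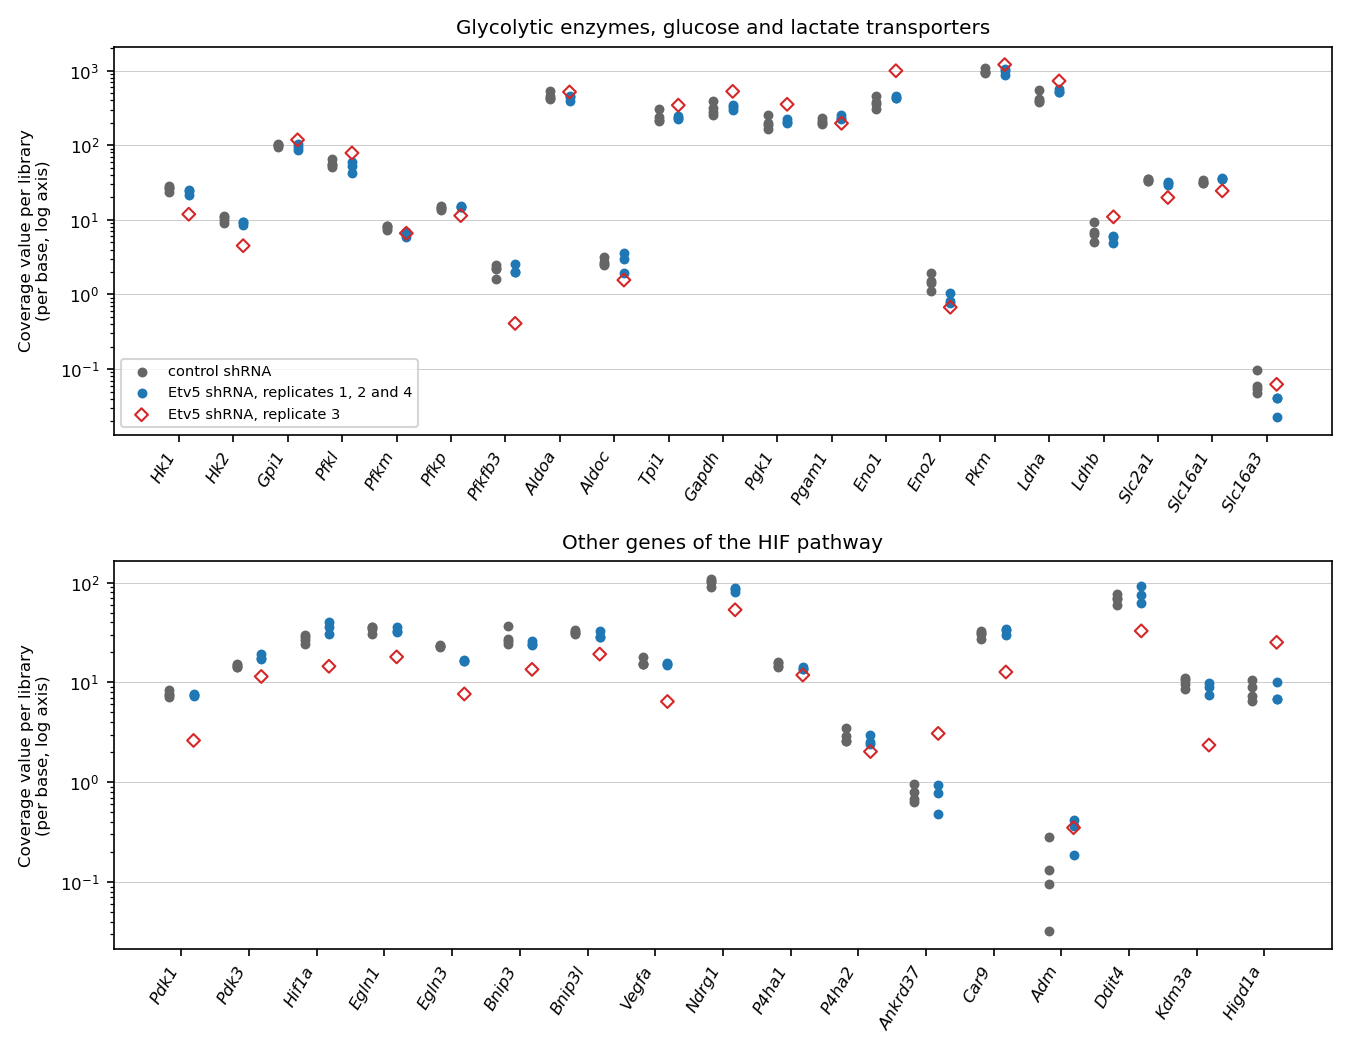
Coverage value (per base, log axis) of every member in each library. Grey points are the 4 control shRNA libraries, blue points Etv5 shRNA replicates 1, 2 and 4, and open red diamonds Etv5 shRNA replicate 3. The red diamonds lie above both groups for Eno1 and below both for Pfkfb3, Pdk1, Vegfa and Kdm3a, while Egln3 separates grey from blue, at 23.2 against 16.4 on average.

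The glucose transporter gene Slc2a1 was 34.8, 33.1, 35.6 and 32.8 with the control shRNA and 31.0, 29.2, 19.9 and 32.4 with the Etv5 shRNA. All Etv5 shRNA libraries lay below all controls, the fourth by a narrow gap. The difference did not pass the adjusted test, at -0.29 (SE 0.17, adjusted p = 0.829) with 8 libraries and -0.14 (SE 0.079, adjusted p = 0.379) without the third Etv5 shRNA library. Slc16a1, which encodes the lactate and pyruvate carrier MCT1, was 31.1, 31.1, 34.3 and 31.7 in the controls and 35.2, 36.9, 24.4 and 35.6 with the Etv5 shRNA. The third Etv5 shRNA library was the lowest of 8, and the other 3 were above all controls. The log2 fold change of Slc16a1 was 0.027 with 8 libraries and 0.16 (SE 0.077, adjusted p = 0.301) without that library. Slc16a3, the carrier MCT4 that HIF is known to raise, was at most 0.098 in any library and was not tested.

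The pyruvate dehydrogenase kinases inhibit the enzyme complex that turns pyruvate into acetyl-CoA inside the mitochondria. Pdk1 was 8.42, 7.63, 7.44 and 7.21 with the control shRNA and 7.56, 7.51, 2.62 and 7.30 with the Etv5 shRNA. Outside the third library the Etv5 shRNA values lay within the control range. The difference of Pdk1 was -0.34 (adjusted p = 0.879) with 8 libraries and -0.034 (95% interval -0.23 to 0.16) without the third. Pdk3 was 14.8, 14.4, 14.4 and 15.2 in the controls and 17.0, 19.2, 11.4 and 17.5 with the Etv5 shRNA. Here the third library was the lowest of 8 and the other 3 were above all controls, with a log2 fold change of 0.12 with 8 libraries and 0.27 (SE 0.079, adjusted p = 0.108) without the third.

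Of the oxygen-sensing core, Egln3 fell and Hif1a was higher without passing the adjusted test. Egln3 lies at chr12:54178981-54203860 on the minus strand of mm10, and none of its 50-base stretches occurs in another annotated gene. It was 23.8, 23.4, 22.5 and 23.2 in the controls and 16.7, 16.2, 7.64 and 16.3 with the Etv5 shRNA. All 4 Etv5 shRNA libraries were below all 4 controls, and the third was lower still than the others. The means were 23.2 ± 0.538 (SD, n = 4) and, without the third Etv5 shRNA library, 16.4 ± 0.216 (SD, n = 3), so the controls were 1.41 times as high. The markers Cdh1 and Pdgfra differed in the same comparison, and their part in this result was not tested. The log2 fold change was -0.48 (SE 0.073, 95% interval -0.64 to -0.31, adjusted p = 0.00955). With all 8 libraries it was larger, -0.73, but with an SE of 0.23 and an adjusted p of 0.438 it was not called. The call without the third Etv5 shRNA library was also lost when a further library was left out, at an adjusted p of 0.0585 without the second control, 0.0685 without the first and 0.0525 without the second Etv5 shRNA library, and at 0.0704 when libraries were scaled to equal sums. It was kept in 13 of 17 alternatives, over which the log2 fold change ranged from -0.50 to -0.43 and the adjusted p from 1.51e-05 to 0.0704. These 17, used for the later counts too, include array quality weights, whose estimation stopped before it converged.

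Hif1a was 26.6, 28.6, 24.2 and 30.1 with the control shRNA and 35.8, 40.1, 14.5 and 30.8 with the Etv5 shRNA. The third Etv5 shRNA library was the lowest of 8, and the other 3 were above all controls, the fourth only just. The difference of Hif1a was 0.055 (95% interval -0.60 to 0.71) with 8 libraries and 0.36 (SE 0.11, 95% interval 0.11 to 0.61, adjusted p = 0.121) without the third. Over the alternatives to the fit of 8 libraries, its log2 fold change ran from -0.11 to 0.36. The upper end is the fit without the third Etv5 shRNA library. With all 8 libraries it was -0.027 when scaled to equal sums and 0.22 with median-of-ratios scaling, so its direction depended on the setting. Egln1, the main hydroxylase of the alpha subunit in most cells, was 30.8 to 35.7 in the controls and 31.9 to 35.7 with the Etv5 shRNA outside the third library, where it was 18.0. Its difference without that library was -0.033 (95% interval -0.23 to 0.16). Egln2, the remaining hydroxylase of the family and not a member, was 17.3, 16.4, 20.5 and 16.2 in the controls and 13.9, 11.2, 24.4 and 14.6 with the Etv5 shRNA, and was not called (-0.39, adjusted p = 0.109, without the third library).

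**Figure D3:**
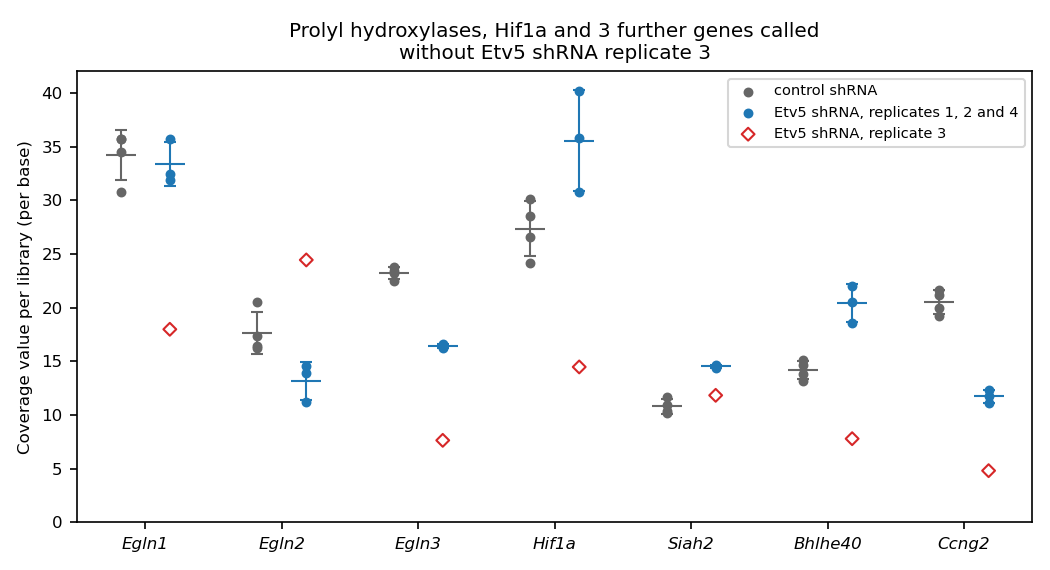
Coverage value per library of the 3 prolyl hydroxylase genes, Hif1a, and 3 further pathway genes called without Etv5 shRNA replicate 3. Grey points are controls, blue points Etv5 shRNA replicates 1, 2 and 4, open red diamonds replicate 3; bars mark mean and SD of the grey (n = 4) and blue (n = 3) points. Egln3 and Ccng2 are lower and Siah2 and Bhlhe40 higher in blue than in grey, with no overlap.

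Among the HIF targets with other functions, Ndrg1 had the lowest log2 fold change without the third Etv5 shRNA library, and Kdm3a with all 8. Ndrg1, a stress-responsive gene strongly raised by hypoxia, was 104, 102, 108 and 90.8 in the controls and 86.5, 79.6, 53.3 and 87.5 with the Etv5 shRNA. Every Etv5 shRNA library was below every control, but the difference was not called, at -0.42 (SE 0.18, adjusted p = 0.683) with 8 libraries and -0.26 (SE 0.094, adjusted p = 0.177) without the third. Vegfa, the main angiogenic factor, was 18.0, 15.3, 15.4 and 15.1 with the control shRNA and 15.8, 15.3, 6.42 and 15.0 with the Etv5 shRNA. Apart from a high value in the first control and a low value in the third Etv5 shRNA library, its values lay between 15.0 and 15.8. The difference of Vegfa was -0.33 (95% interval -0.93 to 0.27) with 8 libraries and -0.046 (95% interval -0.24 to 0.15) without the third.

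Bnip3, a receptor for the removal of mitochondria, was 26.2, 26.9, 36.6 and 24.4 in the controls and 24.5, 26.2, 13.5 and 23.7 with the Etv5 shRNA. The groups overlapped, the third control was the highest and the third Etv5 shRNA library the lowest. Its log2 fold change without that library was -0.18 (adjusted p = 0.488), and 62.4% of its 50-base stretches occur in other annotated genes. Kdm3a, a histone H3 lysine demethylase, was 10.6, 9.72, 8.52 and 11.0 in the controls and 9.01, 9.77, 2.35 and 7.50 with the Etv5 shRNA. Only the third Etv5 shRNA library was far from the rest, and the log2 fold change of Kdm3a went from -0.55 with 8 libraries to -0.17 (SE 0.12) without it.

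Ddit4, an inhibitor of the growth kinase mTORC1, was 68.1, 69.7, 76.8 and 59.1 with the control shRNA and 75.0, 63.0, 32.8 and 92.7 with the Etv5 shRNA. The Etv5 shRNA group held both the lowest and the highest of the 8 values. Car9, which acidifies the outside of the cell, was 32.6, 30.5, 30.9 and 26.9 in the controls and 34.5, 30.1, 12.7 and 33.1 with the Etv5 shRNA. Its groups overlapped outside the third library. Without that library the log2 fold changes were 0.16 (SE 0.14) for Ddit4 and 0.11 (SE 0.092) for Car9, against -0.14 and -0.22 with 8 libraries. The mitophagy receptor gene Bnip3l, the collagen prolyl hydroxylase genes P4ha1 and P4ha2, the ankyrin repeat gene Ankrd37 and the mitochondrial protein gene Higd1a had overlapping groups, with differences from -0.12 to -0.033 without the third library. Ankrd37 and Higd1a were the 2 HIF pathway genes that stood highest in that library, at 3.08 against 0.475 to 0.938 in the other Etv5 shRNA libraries and at 25.2 against 6.74 to 10.2.

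The third Etv5 shRNA library split the classes on its own. On the log2 scale it differed from the mean of the other 3 Etv5 shRNA libraries by a median of -0.47 over all genes tested, 0.15 over the enzymes and transporters and -0.84 over the other HIF pathway genes. It was the lowest of the 8 libraries for 22 of the 36 members, or 61.1%, against 61.7% of all genes tested, and the highest for 11, or 30.6%, against 22.4%. By class, it was the lowest for 8 and the highest for 9 of the 20 enzymes and transporters, and the lowest for 14 and the highest for 2 of the 16 other HIF pathway genes.

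This difference moved with transcript length. Across the 11561 genes tested that had a length, Spearman's rho between length and the difference of the third library was -0.595, and across the 36 members it was -0.489; genes are not independent replicates, and these values are descriptions. Of the 14 members under 2500 bases, 9 lay above the other 3 Etv5 shRNA libraries, and of the 22 longer members 18 lay below them. Over all 11731 genes tested, 3220 lay above those libraries and 7613 below. These counts over all genes were not split at that length, so the split describes the members only. The classes had similar median lengths, 2837 bases for the enzymes and transporters and 3160 for the other HIF pathway genes. Set against genes of like length in 20 length classes, 15 of the 20 enzymes and transporters lay above the median of their class and 12 of the 16 other HIF pathway genes lay below it. Below the lower quartile were Pdk3, Egln3, Bnip3, Vegfa, Car9, Ddit4, Kdm3a and, of the enzymes, Pgam1. Above the upper quartile were Gpi1, Pfkl, Pfkp, Gapdh, Pgk1, Eno1, Pkm and, of the other HIF pathway genes, Higd1a. Over both classes, 8 of the 36 members lay below the lower quartile and 8 above the upper. These counts are near the share of all genes that a quartile cuts off by definition. The length classes did not match genes on coverage level or on stretches shared with other genes, and the part of either was not tested. The third control library had a similar trend with length against the median of the libraries, with a rho of -0.617 over all genes, and the second Etv5 shRNA library one with GC content, with a rho of -0.558. With the trend of each library with length removed, the medians with 8 libraries were 0.11 for the enzymes and transporters and -0.13 for the other HIF pathway genes. Before removal they were -0.012 and -0.23. The part of length in the split of the classes was not tested.

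**Figure D4:**
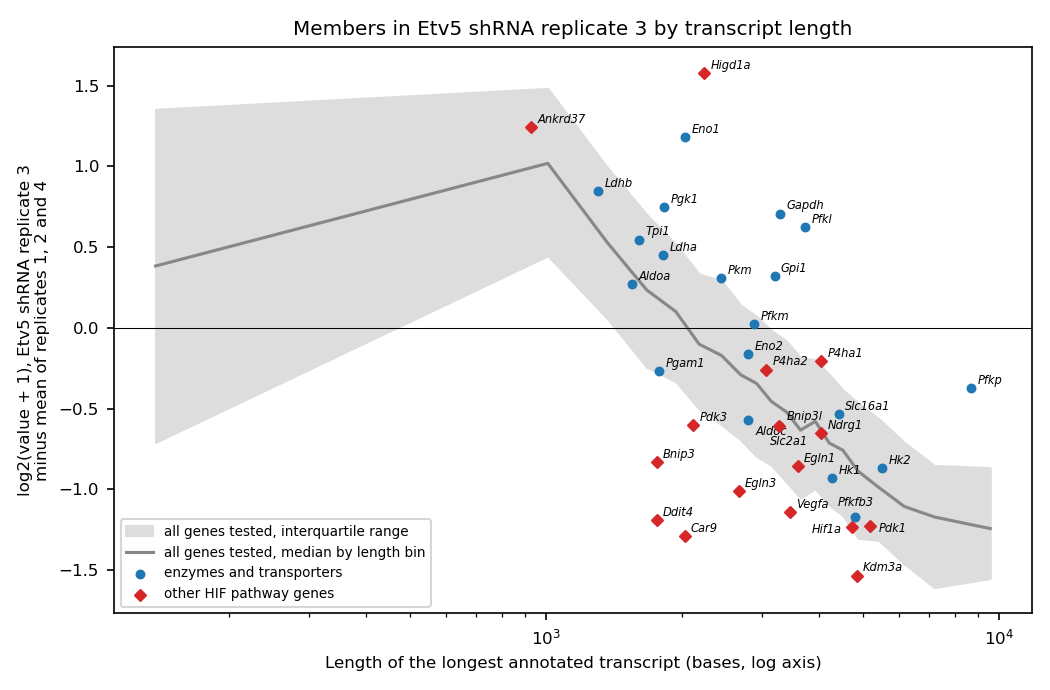
Log2 difference between Etv5 shRNA replicate 3 and the mean of replicates 1, 2 and 4 (vertical axis) against the length of the longest annotated transcript (bases, log axis) for the 36 tested members. The grey line and band give the median and the 25th to 75th percentile of all genes tested in 20 length bins; 12 of 16 other HIF pathway genes (red) lie below their bin's median and 15 of 20 enzymes and transporters (blue) above it.

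The balance between isozymes, as shares of the summed coverage values of the genes named, was compared as a description. How often such shares separate over all genes was not computed. Hk1 held 72.0% ± 0.993 (SD, n = 4) of the coverage of Hk1 and Hk2 in the controls and 72.3% ± 2.25 (SD, n = 3) with the Etv5 shRNA without the third library. Pfkm held 10.1% ± 0.444 (SD, n = 4) of phosphofructokinase coverage in the controls and 8.98% ± 0.492 (SD, n = 3) with the Etv5 shRNA, with no overlap, beside Pfkl at 71.4% and 70.1%. Ldha held 98.4% and 98.9% of the coverage of Ldha and Ldhb, with no overlap outside the third Etv5 shRNA library. In that library the share of Ldha was 98.5%, within the control range. Aldoa held 99.4% in the controls and 99.3% without the third library of the coverage of Aldoa and Aldoc, with overlap. Eno2 held 0.415% and 0.20% of the coverage of Eno1 and Eno2, with no overlap. Within the pyruvate dehydrogenase kinases the share of Pdk3 was 59.8% ± 1.19 (SD, n = 4) in the controls and 66.3% ± 1.88 (SD, n = 3) with the Etv5 shRNA, and the share of Pdk1 31.2% ± 1.70 (SD, n = 4) and 27.6% ± 1.10 (SD, n = 3). Pdk2 made up 8.99% and 6.14%, and Pdk4 was at 0 in every library. Pdk3 had the higher and Pdk1 the lower share in every Etv5 shRNA library, the third included. Among the prolyl hydroxylases, Egln3 held 31.0% ± 1.84 (SD, n = 4) in the controls and 26.1% ± 1.38 (SD, n = 3) with the Etv5 shRNA, and Egln1 45.5% ± 1.42 (SD, n = 4) and 53.0% ± 1.62 (SD, n = 3). In the third Etv5 shRNA library the share of Egln3 was 15.3%, also below all controls, while that of Egln1 was 35.9%, so the groups overlapped for Egln1 once that library was included.

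Outside the members, 5 lists of related genes held 96 symbols, of which 93 were in the table and 67 passed the filter. They cover other glycolysis genes, pyruvate entry into mitochondria, the pentose phosphate pathway, HIF regulators and further HIF targets. With 8 libraries none of the 67 was called, and 4 had an unadjusted p under 0.05, against 7.09% of all genes tested. Without the third Etv5 shRNA library 2 were called higher and 1 lower, against the background of 1.08% higher and 2.05% lower. At an unadjusted p under 0.05 were then 17 of the 67, against 18.8% of all genes tested. Their median log2 fold change was 0.030, against -0.0029 over all genes tested. None of the 8 other glycolysis genes, 12 genes of pyruvate entry or 7 genes of the pentose phosphate pathway that were tested was called in either comparison.

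Siah2, a ubiquitin ligase that removes prolyl hydroxylases, rose without the third Etv5 shRNA library. It was 10.2, 10.4, 11.7 and 11.0 in the controls and 14.5, 14.7, 11.8 and 14.4 with the Etv5 shRNA, with all 4 Etv5 shRNA libraries above all controls. Its log2 fold change was 0.40 (SE 0.081, adjusted p = 0.0324), and 0.33 (adjusted p = 0.59) with 8 libraries. Bhlhe40, a transcriptional repressor raised by hypoxia, also rose. It was 13.8, 14.7, 13.2 and 15.1 in the controls and 20.6, 22.1, 7.80 and 18.5 with the Etv5 shRNA. The third library was the lowest of the 8 and the other 3 Etv5 shRNA libraries were above all controls, with a log2 fold change of 0.49 (SE 0.09, adjusted p = 0.0226) without the third and 0.17 with it. Both calls were made in 11 of 17 alternatives. Leaving out a further library ended that of Siah2 for every library but the third control, with adjusted p from 0.0668 to 0.165, and that of Bhlhe40 for the first or second control and the first or second Etv5 shRNA library, from 0.0769 to 0.128.

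Ccng2, which encodes the growth-restraining cyclin G2, fell. It was 21.2, 20.0, 21.7 and 19.3 with the control shRNA and 11.8, 11.1, 4.82 and 12.3 with the Etv5 shRNA. All Etv5 shRNA libraries were below all controls, and the third was the lowest. The means were 20.5 ± 1.10 (SD, n = 4) and 11.7 ± 0.630 (SD, n = 3) without the third library, a log2 fold change of -0.76 (SE 0.082, adjusted p = 0.00134), and the call was made in 17 of 17 alternatives. As for Egln3, the part of the markers that differed in this comparison was not tested for Siah2, Bhlhe40 or Ccng2. With 8 libraries the log2 fold change was -1.04 (SE 0.26, adjusted p = 0.256).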

How the data were processed

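The 38 members and all gene lists were chosen with earlier results of these data known. Total RNA of 4T1 cells was made into TruSeq libraries and sequenced on a NovaSeq instrument, per the labels' protocols. Reads were aligned with STAR 2.7.10a to mm10, per the submitters' processing notes. The table the authors deposited holds a signal, which per the file headers derives from coverage tracks and behaves as depth-scaled mean coverage per base of each gene. Which program averaged it, and over which annotation, is not given in the sources used here. The table holds no counts, so counting intervals could not be computed, since depth in reads is unknown. No 2 libraries were identical.

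Values were tested as log2(value + 1) over the 11731 genes that reached 0.5 in 4 libraries or more, using limma 3.58.1 (R 4.3.3) and a prior variance that follows intensity. P-values were adjusted over all of them by the Benjamini-Hochberg method. The script was tested on simulated data. Transcript lengths, GC content and shared 50-base stretches came from GENCODE mouse release M21 on mm10, using the longest annotated transcript. A length was found for 98.6% of the genes tested.

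Values in every library are given for each member called, for the 4 members of each class with the largest difference in each direction without the third Etv5 shRNA library, and for Hif1a, Slc2a1, Hk2, Pfkfb3, Ldha, Pdk1, Egln3 and Vegfa. Other pathway genes are named where called. Egln2, Eno3, the 2 markers and the genes named for isozyme shares were chosen after their values were seen. The alternatives were 3 scalings, 2 filters, a pseudocount of 0.1, removal of lowess trends (span 0.3) with length or with length and GC, the replicate number as a block, array quality weights, and leaving out each library.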

Additional observations from a re-analysis of the deposited data

Results flagged for a closer look

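The members, Etv5 and the 3 further pathway genes called were screened for a library far from the other 3 of its group, where the gap to its nearest neighbour exceeded 0.829 of the range of the group (Dixon's 95% criterion). Of 80 groups screened 12 met it, where chance alone gives about 1 in 20, or 4. The groups come from the same libraries and are not independent, and the third Etv5 shRNA library was already known to stand apart, so these counts are a description. The third Etv5 shRNA library accounted for 10 of the 12. It was the lowest of its group for Hk2 at 4.50, Pfkp at 11.4, Slc16a1 at 24.4, Pdk1 at 2.62, Egln3 at 7.64, Vegfa at 6.42, Siah2 at 11.8 and Ccng2 at 4.82. It was the highest for Pgk1 at 353 and Eno1 at 994. The third control library was the highest of its group for Pkm, at 1093, and the first control library for Vegfa, at 18.0.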

How the results depend on the processing

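No result reversed its direction past the threshold. With 8 libraries, the median of the enzymes and transporters moved to 0.15 with median-of-ratios scaling, and to 0.11 with the length trend removed and 0.11 with length and GC trends removed; the cause was not tested. Leaving out each library in turn gave 0 to 1 members called lower and a median of the other HIF pathway genes from -0.33 to -0.062, the upper value without the third Etv5 shRNA library. Without that library, equal sums gave 0 members lower, quantile normalisation 2 higher (Eno1 and Ldha), removal of the length trend 3 higher (Hif1a, Ldha and Pgam1) and of length and GC trends 4 higher (those and Pdk3). Leaving out a further library gave 0 to 2 lower and 0 to 1 higher; the 2 lower (Egln3 and Eno2) and the 1 higher (Ldha) came without the third control. Leaving a group with fewer libraries assumes that the rest vary alike. Array quality weights called 5 members lower and 6 higher with 8 libraries, and 9 lower and 7 higher without the third, and called Etv5 at -0.19 (adjusted p = 0.0392) and -0.18 (adjusted p = 0.0220). The estimation of these weights stopped before it converged and gave the first Etv5 shRNA library a weight of 10.7 and 19.7, and the calls over all genes rose to 1670 lower and 1513 higher, and to 2175 and 2290. With the replicate number as a block, members called stayed at 0 with 8 libraries and at 1 lower without the third, Egln3 at -0.49 (adjusted p = 0.0289); the block ended the call of Bhlhe40 (adjusted p = 0.0566), as equal sums did (0.0712). The labels do not say that a number marks a shared culture. Deviations of same-numbered libraries correlated at 0.092 to 0.79, and 2 of 4 controls correlated best with their own number. Over all genes the block gave 211 lower and 80 higher, against 241 and 127. Read depth is unknown, so what depth limits could not be stated.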
